A study of Saccharomyces cerevisiae with 12 samples.

Results

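The genes of amino acid synthesis that the transcription factor Gcn4 controls were followed in yeast cells with and without Sus1 and with and without Congo red (CR). The set was chosen by gene name and not by its values, although earlier results of these data were known. It held 37 of the 5449 genes measured, which were *GCN4* itself with 5 genes of arginine, 5 of histidine, 9 of branched-chain amino acid, 7 of lysine and 10 of aromatic amino acid synthesis. Every one of them had 1 probe set on the array.

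Gcn4 is the activator of the general amino acid control of yeast. When amino acids run short, the kinase Gcn2 phosphorylates the translation factor eIF2, which slows general protein synthesis but increases the translation of the *GCN4* mRNA, so that much of the control of Gcn4 lies downstream of its transcript. The Gcn4 protein binds upstream of biosynthetic genes in many pathways and recruits coactivators, SAGA among them. Sus1 is a subunit of the deubiquitination module of SAGA and of the TREX-2 complex of mRNA export.

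Total RNA was hybridized to 12 GeneChip Yeast Genome 2.0 arrays, with 3 cultures in each of 4 groups. The WT was BY4741, a MATa laboratory strain with the alleles *his3*Δ1 *leu2*Δ0 *met15*Δ0 *ura3*Δ0, and the *sus1*Δ strain was made from it by replacing *SUS1* with *KanMX4*, so both strains lack steps of histidine, leucine, methionine and uracil synthesis and grew in rich YPD medium. Each culture was split into an untreated part and a part given CR, a chitin-binding dye that perturbs cell wall assembly, at 30 μg/mL for 3 h by the titles and the study's methods and for 2 h by the deposited design. The labels name 1 *sus1*Δ strain, so the deletion and any other difference between these strains cannot be told apart.

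The values are log2 signals, in which a difference of 1 is a ratio of 2, and they compare a gene with itself across arrays and not genes with each other. The 12 array medians lay between 9.08 and 9.16. The lowest 5% of signals ended at 4.53 to 4.80 on WT and at 5.36 to 5.49 on *sus1*Δ arrays. The low end of the signals thus differed by strain, and its effect on the strain differences was not tested. The *SUS1* difference between *sus1*Δ and WT cells was -5.47 untreated and -5.31 with CR (adjusted p = 3.7e-08 and 2.6e-08), as the labels require. *LEU2*, *MET17* (the *met15* locus) and *URA3* read at most 4.44 on any array, whereas *HIS3*, of which *his3*Δ1 lacks only a part, read 9.48 to 10.17. Among the 37 genes, *ARG3* was dim, at 4.84 to 5.92 on the 12 arrays.

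WT culture 3 stood apart for these genes. On its CR array, 25 of the 37 read the lowest of the 3 cultures (67.6%, against 44.6% of all genes), and 8 lay over 0.5 below the mean of the other cultures (21.6% against 6.81%). On its untreated array, 7 of the 37 did (18.9% against 4.81%). In the *sus1*Δ strain, culture 2 was lowest in 22 genes untreated (59.5% against 29.9%) and in 27 with CR (73% against 32.1%), with a median difference from the other cultures of -0.08 and -0.10. The spread was wider in WT cells, with a median SD over the 37 genes of 0.153 untreated and 0.201 with CR, than in *sus1*Δ cells with 0.0813 and 0.0741. Over all genes it was wider in WT cells too, with 0.148 in both conditions against 0.0712 and 0.0784. Results are therefore given with and without WT culture 3 where that changes them, and arrays are named by culture in the order 1, 2 and 3.

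What CR did to these genes in each strain was asked first. In WT cells, 3 of the 37 fell and none rose at an adjusted p under 0.05 in limma. The 3 were *LYS20* and *LYS4*, of the lysine pathway, and *LEU9*, of the leucine pathway. They make up 8.11% of the genes, and 9.01% of all genes measured fell, so the share was near the background. No gene of the 37 was called higher (background 9.4%), and 6 had an unadjusted p under 0.05. The median over the 37 was -0.15 against -0.02 over all genes, and 26 of them lay below 0 (70.3% against 54.2% of all genes). Much of this shift lay in WT culture 3. Within WT cultures 1, 2 and 3 the median over the 37 was -0.06, -0.06 and -0.22, with 0.02, 0 and -0.09 over all genes. There 21, 22 and 29 of the 37 were lower with CR (47%, 50.6% and 61.1% of all genes). In *sus1*Δ cells none of the 37 was called in either direction, where 0.147% of all genes fell and 1.39% rose, and 3 had an unadjusted p under 0.05. Their median was -0.10 against -0.03 over all genes, with 27 below 0 (73% against 59.4%).

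**Figure D1:**
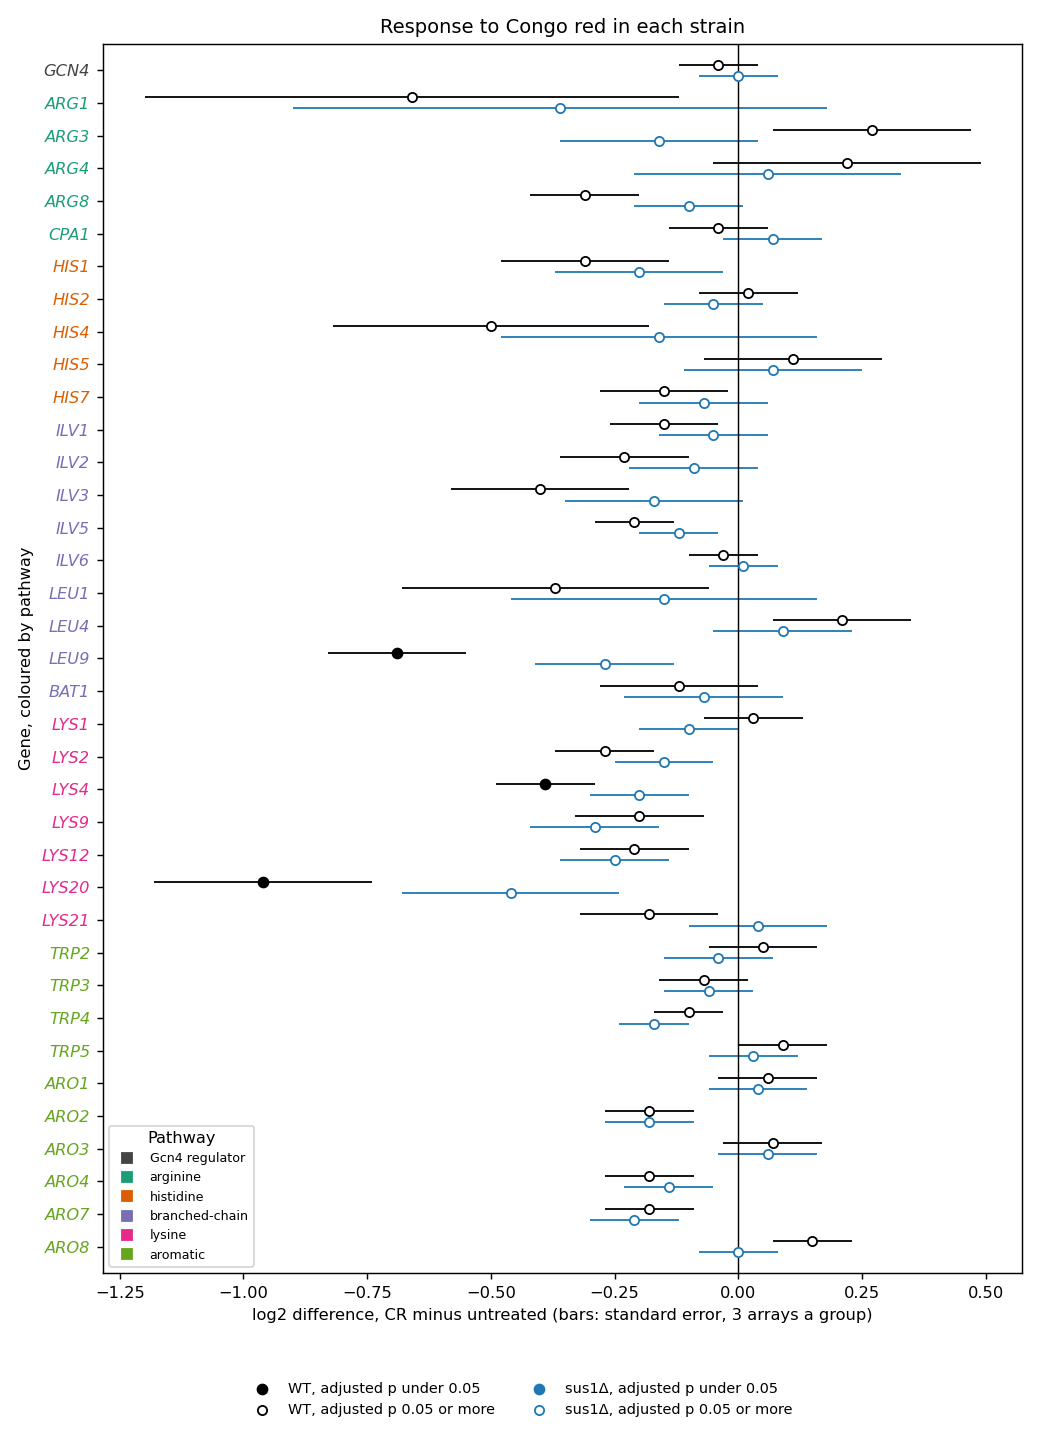
The log2 difference between CR-treated and untreated cells (horizontal axis) of each of the 37 genes (vertical axis, coloured by pathway), in black for WT and in blue for *sus1*Δ cells, with standard errors from the fit as bars and filled points for an adjusted p under 0.05. *LYS20* at -0.96, *LEU9* at -0.69 and *LYS4* at -0.39 in WT cells are the filled points, and *ARG1* has the widest bars.

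When each CR-treated part was compared with the untreated part of its own culture (culture as a replicate block), more genes passed the test in WT cells. Under this block *ARG1*, *ARG8*, *HIS1*, *HIS4*, *ILV3*, *LEU1*, *LEU9*, *LYS4* and *LYS20* fell, which is 9 of 37 (24.3%, with 15% of all genes), and *ARG4* rose (2.7%, with 14.9% of all genes). Without WT culture 3, the blocked comparison called *HIS4*, *LEU1*, *LEU9*, *LYS4* and *LYS20* lower (13.5%, with 12.1% of all genes) and *ARG4* higher, which left little excess over the background. The blocked comparison of *sus1*Δ cells called only *LYS20*, as lower (2.7%, with 1.05% of all genes), and none higher (background 2.53%). Without WT culture 3 and with no block, 2 genes were lower in WT cells, *LEU9* and *LYS20* (5.41%, with 6.09% of all genes), and none higher (background 9.49%), and in *sus1*Δ cells *LYS20* alone was called, as lower (background 0.936%, and 2.26% higher). Within the single cultures, 16 of the 37 genes were lower with CR in all 3 WT cultures (43.2%, against 30% of all genes) and 19 in all 3 *sus1*Δ cultures (51.4% against 31.1%).

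**Figure D2:**
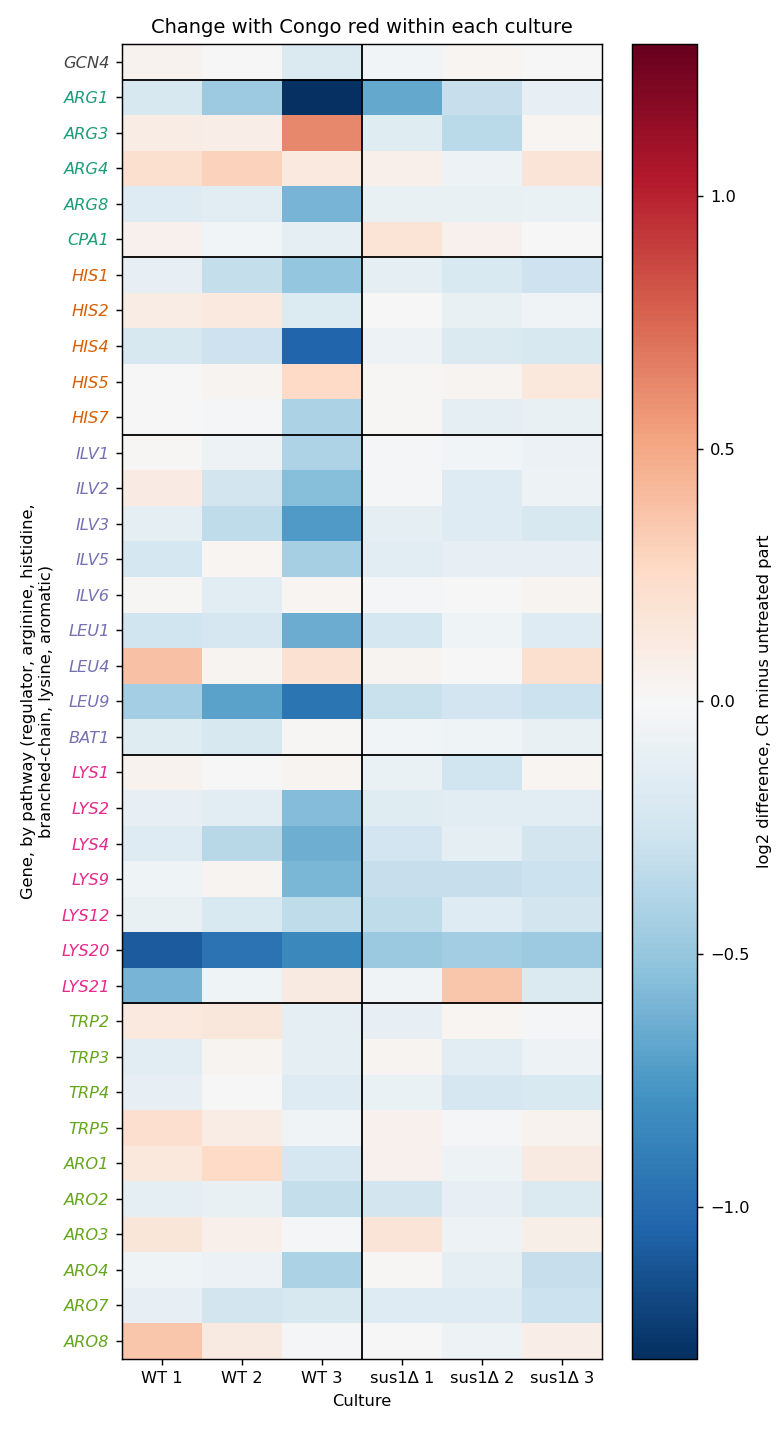
The log2 difference between the CR-treated and the untreated part of each culture (colour, blue for lower with CR and red for higher) for the 37 genes (rows) in 3 WT and 3 *sus1*Δ cultures (columns). *LYS20* is blue in every column, from -1.08 to -0.84 in WT and from -0.48 to -0.45 in *sus1*Δ cultures, and *ARG1* and *HIS4* are darkest in WT culture 3, at -1.29 and -1.03.

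The comparison between strains was asked without and with CR. Untreated *sus1*Δ cells had 4 of the 37 genes higher than WT cells, which were *CPA1*, *HIS2*, *TRP3* and *ARO2* (10.8%, against 14.3% of all genes), and none lower (background 7.08%). A total of 10 had an unadjusted p under 0.05. With CR, 8 were higher, which were *GCN4*, *ARG8*, *CPA1*, *HIS2*, *ILV3*, *ILV5*, *TRP3* and *ARO2* (21.6%, against 16.8% of all genes), and *TRP4* was lower (2.7% against 10.9%). The medians over the 37 genes were 0.05 and 0.06, with 0.03 over all genes in both comparisons. Without WT culture 3, 7 genes were higher (18.9%, with 20.9% of all genes) and 2 lower (5.41%, with 10.4%) in untreated *sus1*Δ cells. The higher genes were then *GCN4*, *ARG8*, *CPA1*, *HIS2*, *ILV3*, *TRP3* and *ARO2*, and the lower ones *ARG4* and *HIS5*. With CR, 8 were higher without that culture (21.6%, with 17.6%), where *BAT1* and *LYS20* took the places of *HIS2* and *ILV5*, and 4 were lower (10.8%, with 14%), which were *ARG4*, *HIS5*, *TRP4* and *ARO4*. These comparisons share arrays with those of CR against untreated cells, the WT arrays with CR for instance, and are given side by side only. In bulk RNA, a lower level in every cell and fewer cells with the transcript cannot be told apart.

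**Figure D3:**
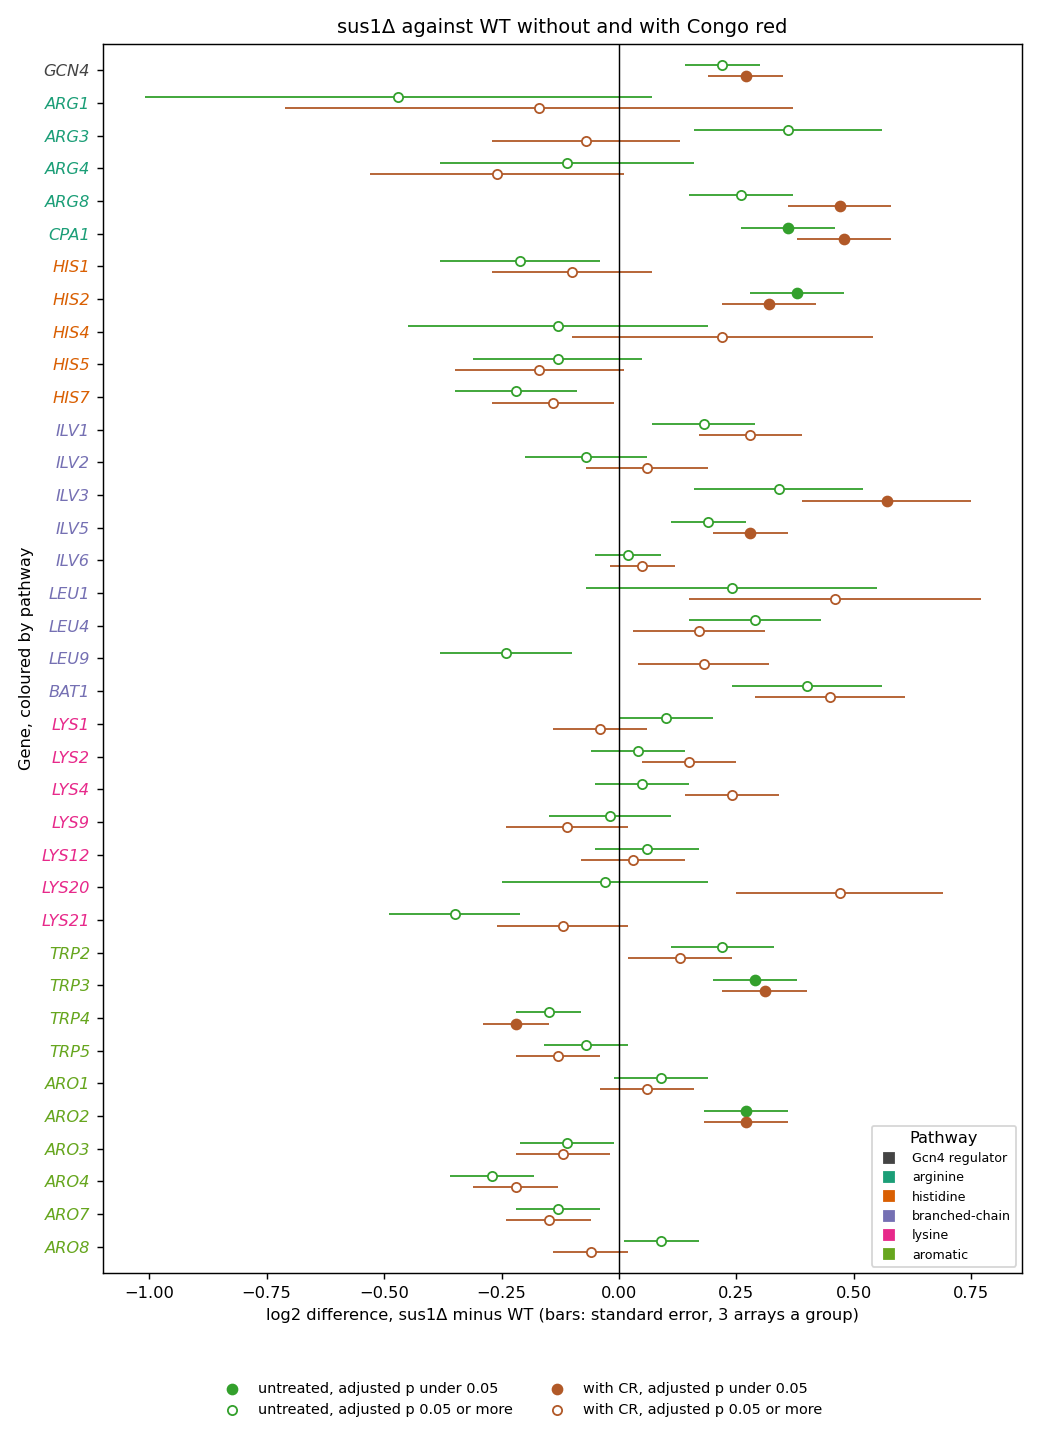
The log2 difference between *sus1*Δ and WT cells (horizontal axis) of each of the 37 genes (vertical axis, coloured by pathway), in green without and in brown with CR, with standard errors from the fit as bars and filled points for an adjusted p under 0.05. *CPA1*, *HIS2*, *TRP3* and *ARO2* are filled in both, between 0.27 and 0.48, and *TRP4* at -0.22 with CR is the filled point left of 0.

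Most of these calls depended on single arrays. Leaving out each of the 12 arrays in turn, *LYS20* and *LEU9* for CR in WT cells and *CPA1* and *ARG8* for *sus1*Δ against WT cells with CR kept an adjusted p under 0.05 throughout. *LYS4* lost it without the untreated array of WT culture 3. Each of the 4 strain differences without CR was lost in 2 to 8 of these 12 fits, *ARO2* in 8. Each of the other 7 with CR was lost in 3 to 7 of them. *ARO2* and *ILV3* were lost in 7, and *GCN4* and *ILV5* in 5.

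The regulator came first. *GCN4* read 12.80, 12.69 and 12.98 in untreated WT cells and 12.84, 12.70 and 12.80 with CR. In *sus1*Δ cells it read 13.04, 13.04 and 13.05 untreated and 13.00, 13.07 and 13.06 with CR. All 6 *sus1*Δ arrays thus lay above all 6 WT arrays, by little, and the CR and untreated arrays of a strain overlapped. The transcript was higher in *sus1*Δ than in WT cells with CR, by 0.27 (standard error 0.08, adjusted p = 0.0285). Without CR the difference was 0.22 (95% interval 0.05 to 0.40, adjusted p = 0.068), and it passed the test without WT culture 3, at 0.30 (adjusted p = 0.0104). CR changed it by -0.04 in WT cells (95% interval -0.22 to 0.13) and by 0.00 in *sus1*Δ cells (-0.18 to 0.17). The array reads the transcript alone, and Gcn4 protein was not measured.

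In the arginine pathway *CPA1* and *ARG8* were called between strains with all arrays. The 5 genes did not move together, with 2 below 0 untreated (median 0.26) and 3 below 0 with CR (median -0.07). *CPA1* encodes the small subunit of the carbamoyl phosphate synthetase that serves arginine synthesis. It read 10.08, 9.96 and 10.11 in untreated WT and 10.28, 10.34 and 10.62 in untreated *sus1*Δ cells. With CR it read 10.13, 9.92 and 9.99 in WT and 10.45, 10.40 and 10.61 in *sus1*Δ cells. The strains did not overlap in either condition, and *CPA1* was higher in *sus1*Δ cells by 0.36 without and by 0.48 with CR (adjusted p = 0.026 and 0.00585), and CR changed it by -0.04 in WT cells and by 0.07 without Sus1.

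*ARG8* encodes acetylornithine aminotransferase, a mitochondrial step on the way to ornithine. Its signals were 8.72, 8.97 and 8.94 in untreated WT, 8.56, 8.82 and 8.34 in CR-treated WT, 9.08, 9.16 and 9.18 in untreated *sus1*Δ and 8.98, 9.06 and 9.09 in CR-treated *sus1*Δ cells. Each *sus1*Δ array was again above each WT array of its condition. With CR the difference of 0.47 passed the test (standard error 0.11, adjusted p = 0.0106), and without CR the difference of 0.26 did not (adjusted p = 0.122), although it just did without WT culture 3, at 0.29 (adjusted p = 0.0499). In WT cells *ARG8* changed by -0.31 with CR (adjusted p = 0.0839), a fall that passed the test with the culture block (adjusted p = 0.036) but not without WT culture 3 (-0.16, adjusted p = 0.373, no block).

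*ARG1* and *ARG4*, which encode argininosuccinate synthetase and lyase, the last enzymes of the pathway, were named only after their values were seen. *ARG1* had the largest SD of the 37 genes in all 4 groups, from 0.554 to 1.14. It read 8.73, 8.90 and 7.78 in untreated WT and 8.52, 8.42 and 6.50 in CR-treated WT cells, and 8.64, 7.30 and 8.07 in untreated and 7.98, 7.01 and 7.96 in CR-treated *sus1*Δ cells. Culture 3 was the low one in WT and culture 2 in *sus1*Δ cells, with and without CR, so that cultures differed by more than the treatment did. Within cultures its change was -0.21, -0.47 and -1.29 in WT and -0.67, -0.30 and -0.11 in *sus1*Δ cells. The mean change of -0.66 in WT cells had an adjusted p of 0.446, and of 0.0283 with the culture block. *ARG4* had the opposite sign, with changes of 0.21, 0.30 and 0.13 in the WT cultures, and its mean of 0.22 was called with the block (adjusted p = 0.0478) and not without it (0.634). Its level was nevertheless lowest in WT culture 3, at 9.40 untreated and 9.53 with CR against 10.16 to 10.60 in the other WT parts. Leaving that culture out, the *ARG4* difference between *sus1*Δ and WT cells was -0.38 without and -0.58 with CR (adjusted p = 0.0251 and 0.00358). *ARG3*, for ornithine carbamoyltransferase, was not called in any comparison.

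Among the histidine genes, *HIS2*, which encodes histidinol phosphatase, was the one called with all arrays. It read 9.20, 9.20 and 9.26 in untreated WT and 9.72, 9.53 and 9.55 in untreated *sus1*Δ cells, and 9.29, 9.33 and 9.08 in WT and 9.73, 9.43 and 9.50 in *sus1*Δ cells with CR. The strains were apart in both conditions. *HIS2* was higher in *sus1*Δ cells by 0.38 without (adjusted p = 0.019) and by 0.32 with CR (adjusted p = 0.0309), the second of which was lost without WT culture 3 (0.24, adjusted p = 0.0871).

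The other 4 histidine genes went the other way in untreated cells, with differences between *sus1*Δ and WT of -0.22 to -0.13, none of them called with all arrays. *HIS4*, which encodes an enzyme of several steps and is a common reporter of Gcn4, and *HIS1*, for the ATP phosphoribosyltransferase that opens the pathway, changed by -0.50 and -0.31 with CR in WT cells. Neither passed the test without the block (adjusted p = 0.317 and 0.249), and both did with it (0.0288 and 0.0214). In the single WT cultures *HIS4* changed by -0.21, -0.27 and -1.03 and *HIS1* by -0.11, -0.31 and -0.50, so each was largest in culture 3. In the *sus1*Δ cultures *HIS4* changed by -0.07, -0.19 and -0.21, so its sign was the same in all 6 cultures. *HIS5*, for histidinol phosphate aminotransferase, was at -0.13 without and -0.17 with CR in *sus1*Δ against WT cells (adjusted p = 0.628 and 0.503). Without WT culture 3 it was called lower in both, at -0.36 and -0.32 (adjusted p = 0.0125 and 0.0212). *HIS7*, for imidazole glycerol phosphate synthase, was not called in any comparison, with or without that culture.

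Leucine synthesis starts with isopropylmalate synthase, which has isozymes encoded by *LEU4* and *LEU9*, and the CR response of that pair was unequal. *LEU9* read 10.34, 10.42 and 10.25 in untreated and 9.90, 9.73 and 9.30 in CR-treated WT cells. Without Sus1 it read 10.10, 9.96 and 10.22 untreated and 9.80, 9.71 and 9.95 with CR. No CR array reached an untreated array of its strain. *LEU9* fell by 0.69 in WT cells on the log2 scale, a ratio of 0.618 (standard error 0.14, adjusted p = 0.00513), and by 0.57 without WT culture 3 (adjusted p = 0.00886). The *sus1*Δ difference of -0.27 did not pass the test (95% interval -0.58 to 0.03, adjusted p = 0.556), and was called with the culture block only when WT culture 3 was left out (adjusted p = 0.0421). The difference between the 2 responses was 0.42 (95% interval -0.01 to 0.85, adjusted p = 0.595).

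*LEU4*, for the main isozyme, read 11.44, 11.50 and 11.06 in untreated WT, 11.82, 11.54 and 11.26 in CR-treated WT, 11.71, 11.64 and 11.54 in untreated *sus1*Δ and 11.74, 11.65 and 11.75 in CR-treated *sus1*Δ cells. Its CR and untreated arrays overlapped in WT cells, and its changes of 0.21 and 0.09 were not called (adjusted p = 0.353 and 0.934). In all 6 cultures *LEU4* was slightly higher and *LEU9* lower with CR.

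Of the other branched-chain genes, *ILV3* and *ILV5* differed between the strains with CR. *ILV5* encodes acetohydroxyacid reductoisomerase and *ILV3* dihydroxyacid dehydratase, successive mitochondrial steps shared by isoleucine, valine and leucine synthesis. *ILV3* read 11.43, 11.39 and 10.62 in CR-treated WT and 11.81, 11.65 and 11.71 in CR-treated *sus1*Δ cells, after 11.56, 11.73 and 11.35 and 11.94, 11.82 and 11.92 without CR. The low value of WT culture 3 enlarged the difference, which was 0.57 with all arrays (adjusted p = 0.0371) and 0.31 without that culture (adjusted p = 0.0177). Without CR it was 0.34 (adjusted p = 0.203), and 0.25 without that culture (adjusted p = 0.0409). *ILV5* read 12.39, 12.49 and 12.20 in WT and 12.68, 12.60 and 12.63 in *sus1*Δ cells with CR, and 12.62, 12.46 and 12.63 and 12.83, 12.70 and 12.74 without. Its difference of 0.28 with CR (adjusted p = 0.0318) was lost with the culture block (0.0508) and without WT culture 3 (0.20, adjusted p = 0.0781).

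With CR all 9 branched-chain genes lay above 0 in *sus1*Δ against WT cells, from 0.05 to 0.57 with a median of 0.28, where 45.2% of all genes lay below 0. Without WT culture 3 the median was 0.08 and the range -0.11 to 0.32, with *ILV2* below 0 (48.4% of all genes). Without CR, 7 of the 9 lay above 0, with a median of 0.19 (44% of all genes below 0), and of 0.16 without that culture, when 3 lay below 0. *BAT1*, for the mitochondrial branched-chain aminotransferase, was at 0.45 with CR (adjusted p = 0.0546, and 0.0331 with the culture block), and at 0.32 without WT culture 3 (adjusted p = 0.0124). *LEU1*, for isopropylmalate isomerase, showed how far culture 3 reached, with 11.45, 11.50 and 10.22 in CR-treated and 11.70, 11.72 and 10.85 in untreated WT cells, and was named after its values were seen. Its CR change of -0.37 in WT cells was called with the culture block only (adjusted p = 0.0157 against 0.458). *ILV1*, *ILV2* and *ILV6*, for threonine deaminase and the catalytic and regulatory subunits of acetolactate synthase, were not called in any comparison with all arrays.

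The lysine pathway held the largest CR change among the 37 genes. *LYS20* and *LYS21* encode isozymes of homocitrate synthase, the enzyme that commits 2-oxoglutarate to lysine synthesis. *LYS20* read 11.44, 11.48 and 12.09 in untreated and 10.36, 10.52 and 11.25 in CR-treated WT cells. In *sus1*Δ cells it read 11.64, 11.56 and 11.74 untreated and 11.16, 11.10 and 11.27 with CR. In both strains every CR array was below every untreated array, and WT culture 3 was the highest in both WT groups.

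*LYS20* fell with CR in WT cells to a ratio of 0.514 (-0.96 on the log2 scale, standard error 0.22, adjusted p = 0.00989, and 3.58e-05 with the culture block). A fit to the 6 WT arrays alone gave an adjusted p of 0.0886 for the same difference. In *sus1*Δ cells the difference was -0.46, a ratio of 0.725 (95% interval -0.94 to 0.01, adjusted p = 0.493 in the fit to all arrays). It passed the test with the culture block (adjusted p = 0.00648) and in a fit to the 6 *sus1*Δ arrays alone (adjusted p = 0.00915). The changes were -1.08, -0.96 and -0.84 in the WT cultures and -0.48, -0.45 and -0.47 in the *sus1*Δ cultures, so the ranges of the strains did not overlap. The difference between the responses was 0.50 (95% interval -0.17 to 1.17, adjusted p = 0.739), with an adjusted p of 0.0532 under the culture block. With the block and without WT culture 3, a combination added after the data were seen, it was 0.56 (adjusted p = 0.033). With CR, *LYS20* was at 0.47 in *sus1*Δ against WT cells (adjusted p = 0.129), and at 0.74 without WT culture 3 (adjusted p = 0.000269).

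*LYS21* read 10.35, 10.33 and 10.14 in untreated WT, 9.76, 10.26 and 10.26 in CR-treated WT, 10.00, 9.78 and 10.02 in untreated *sus1*Δ and 9.94, 10.14 and 9.82 in CR-treated *sus1*Δ cells. The groups overlapped in each CR comparison. Its CR changes were -0.18 in WT cells (95% interval -0.49 to 0.12, adjusted p = 0.417) and 0.04 in *sus1*Δ cells (-0.27 to 0.35), and the low WT array with CR was that of culture 1. How far the probe sets of paralogous genes read each other's transcripts was not tested.

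**Figure D4:**
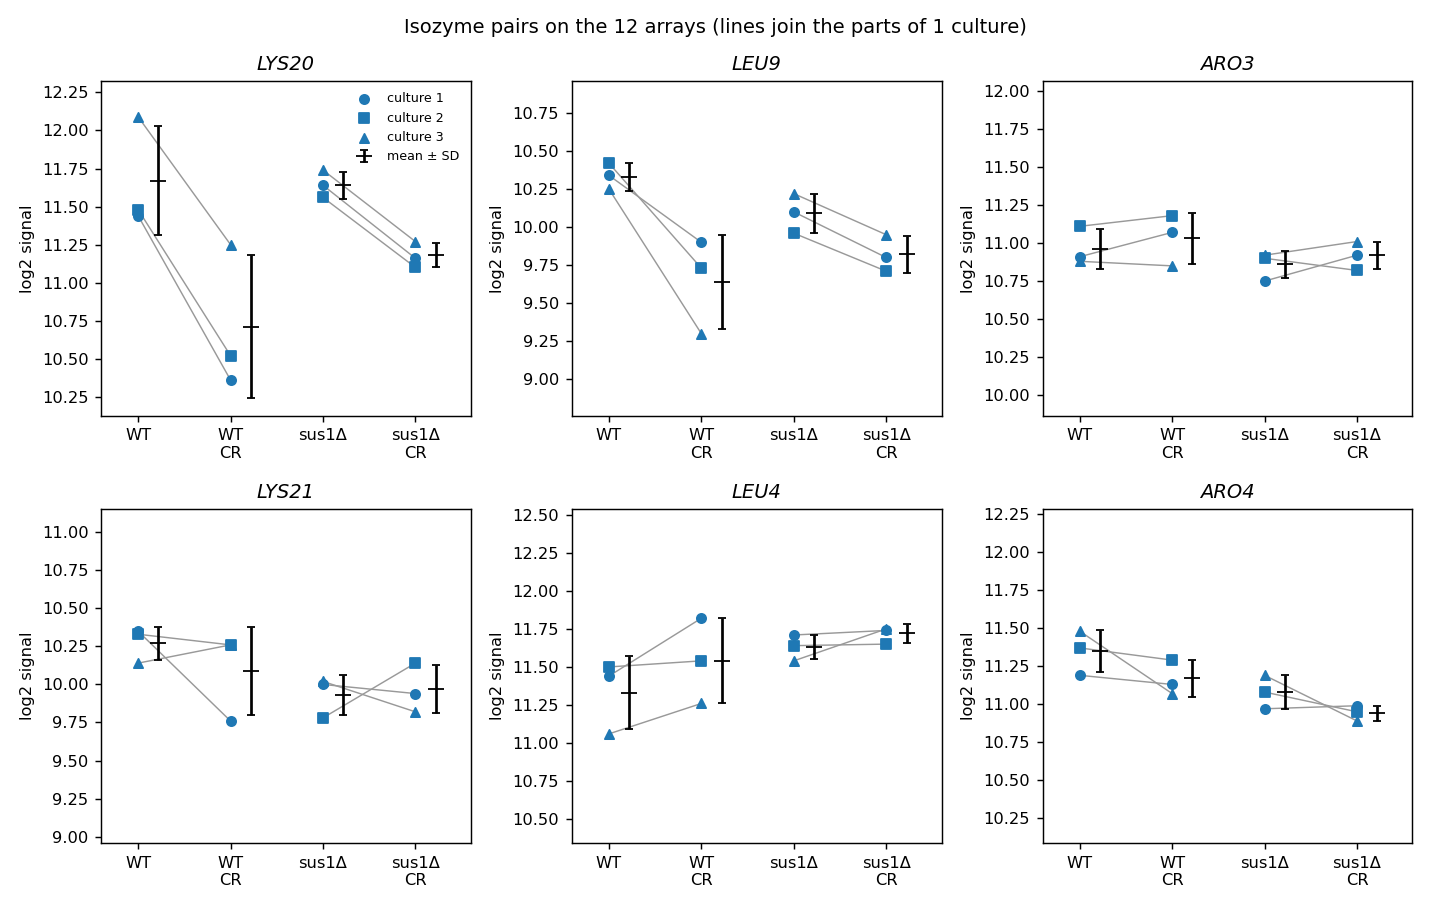
The log2 signal on the 12 arrays (vertical axis, all panels spanning the same range) of the isozyme pairs *LYS20* and *LYS21*, *LEU9* and *LEU4*, *ARO3* and *ARO4* in the 4 groups (horizontal axis), with a marker for each culture, grey lines between the parts of a culture and bars for the mean and SD of 3 cultures. The lines of *LYS20* and *LEU9* drop in all 6 cultures, and those of *LEU4* slope slightly upward.

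*LYS4*, for homoaconitase, the next enzyme after homocitrate synthase, read 9.48, 9.62 and 9.89 in untreated and 9.31, 9.26 and 9.26 in CR-treated WT cells, and 9.73, 9.59 and 9.82 in untreated and 9.48, 9.47 and 9.58 in CR-treated *sus1*Δ cells. The CR arrays lay below the untreated ones in both strains. It fell by 0.39 in WT cells (standard error 0.10, adjusted p = 0.021), and by 0.27 without WT culture 3, where the test was missed (adjusted p = 0.087). The *sus1*Δ difference was -0.20 (95% interval -0.43 to 0.02, adjusted p = 0.543).

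In each strain 6 of the 7 lysine genes lay below 0 with CR, with a median of -0.21 in the WT and of -0.20 in the mutant. *LYS2*, *LYS9* and *LYS12*, for aminoadipate reductase, saccharopine reductase and homoisocitrate dehydrogenase, joined *LYS4* and *LYS20* among the genes whose CR and untreated arrays did not overlap in *sus1*Δ cells. In that strain 12 of the 37 genes were of this kind (32.4%, against 16.9% of all genes), and in WT cells 4 were (10.8% against 14.7%). *LYS9* changed by -0.30, -0.30 and -0.28 in the *sus1*Δ cultures, and by -0.06, 0.04 and -0.59 in the WT cultures. *LYS12* changed by -0.33, -0.17 and -0.24 in *sus1*Δ and by -0.10, -0.20 and -0.33 in WT cultures. Neither was called in *sus1*Δ cells (adjusted p = 0.484 and 0.468), and both were with the culture block once WT culture 3 was left out (adjusted p = 0.0181 and 0.0427), when 10.8% of the 37 genes and 3.89% of all genes were called lower. *LYS1*, for the last step, was not called in any comparison.

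In the aromatic pathway no gene was called for CR, and the strains differed in *TRP3*, *ARO2* and *TRP4*. *ARO2* encodes chorismate synthase, which makes the branch point compound of the aromatic amino acids. It read 11.14, 11.27 and 11.43 in untreated WT, 11.65, 11.46 and 11.53 in untreated *sus1*Δ, 11.01, 11.16 and 11.12 in CR-treated WT and 11.41, 11.35 and 11.35 in CR-treated *sus1*Δ cells. It was higher in *sus1*Δ cells by 0.27 in both conditions (adjusted p = 0.0472 and 0.041), and its CR change was -0.18 in both strains.

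Tryptophan synthesis leaves chorismate through anthranilate, and its genes did not move together. *TRP3*, for a subunit of anthranilate synthase that also carries indole glycerol phosphate synthase, read 9.81, 9.56 and 9.85 in untreated WT and 9.99, 10.05 and 10.07 in untreated *sus1*Δ cells, and 9.67, 9.59 and 9.73 against 10.02, 9.89 and 10.00 with CR. It was higher in *sus1*Δ cells by 0.29 without and 0.31 with CR (adjusted p = 0.0311 and 0.0218). *TRP4*, for anthranilate phosphoribosyltransferase, read 9.66, 9.71 and 9.64 in WT and 9.55, 9.38 and 9.41 in *sus1*Δ cells with CR, and 9.77, 9.72 and 9.82 against 9.64, 9.60 and 9.61 without. It was lower in *sus1*Δ cells with CR, by a log2 difference of 0.22 (adjusted p = 0.0283), and the difference of -0.15 without CR was not called (adjusted p = 0.13). Both genes separated the strains in both conditions, in opposite directions.

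*ARO3* and *ARO4* encode the isozymes that open the shikimate pathway, inhibited by phenylalanine and by tyrosine. *ARO3* read 10.91, 11.11 and 10.88 in untreated WT, 11.07, 11.18 and 10.85 in CR-treated WT, 10.75, 10.90 and 10.92 in untreated *sus1*Δ and 10.92, 10.82 and 11.01 in CR-treated *sus1*Δ cells. *ARO4* read 11.19, 11.37 and 11.48, then 11.13, 11.29 and 11.07, then 10.97, 11.08 and 11.19, and then 10.99, 10.95 and 10.89 in the same groups. The groups of *ARO3* overlapped throughout, and no *sus1*Δ array of *ARO4* was above a WT array of its condition. Its differences of -0.27 without and -0.22 with CR missed the threshold (adjusted p = 0.0629 and 0.0967), and without WT culture 3 the one with CR passed it, at -0.27 (adjusted p = 0.0471). *ARO1*, *ARO7*, *ARO8*, *TRP2* and *TRP5*, for the pentafunctional shikimate enzyme, chorismate mutase, an aromatic aminotransferase, anthranilate synthase and tryptophan synthase, were not called in any comparison.

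None of the 37 genes was called for a difference between the 2 CR responses (background 0.0734% lower and 0% higher), with limma or with the culture block, and 0 had an unadjusted p under 0.05. Their median was 0.04, and they ranged from -0.43 to 0.50. Standard errors of this comparison had a median of 0.15, so small differences between the responses were not detectable with these arrays. They were 0.31 for *LYS20*, 0.45 for *HIS4* and 0.76 for *ARG1*, where larger differences could be missed too.

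Other genes of these pathways and of Gcn4 itself were read from lists made by gene function, with earlier results of these data known. Of 11 further genes of the same 5 pathways, 1 fell and 1 rose with CR in WT cells (9.01% and 9.4% of all genes). The 11 include *LEU2*, which both strains lack, and *HIS3*, of which both strains keep only a part. *HIS6*, for an isomerase of histidine synthesis, fell by 0.60 (adjusted p = 0.000773), from 8.97, 9.07 and 9.26 to 8.39, 8.63 and 8.47. *TYR1*, for prephenate dehydrogenase of tyrosine synthesis, rose by 0.49 (adjusted p = 0.00232), from 10.27, 10.13 and 9.98 to 10.69, 10.54 and 10.62. Neither was called in *sus1*Δ cells, at -0.32 and 0.07 (adjusted p = 0.138 and 0.901), and their responses were not called as different between the strains (adjusted p = 0.545 and 0.288).

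Between strains, 1 of these 11 genes was higher and 4 were lower in untreated *sus1*Δ cells, and 2 were higher and 4 lower with CR. The partly deleted *HIS3* was among the lower ones in both conditions. Of all genes, 14.3% and 7.08% were higher and lower untreated, and 16.8% and 10.9% with CR. *ARG2*, for acetylglutamate synthase, was higher by 0.43 without and 0.44 with CR (adjusted p = 0.033 and 0.0239), and *HIS6* was higher with CR by 0.47 (adjusted p = 0.00286). *ARO9*, a transaminase of aromatic amino acid breakdown, was lower by 0.61 and 0.49 without and with CR (adjusted p = 0.00746 and 0.0159). *HIS3* was lower by 0.49 and 0.45 (adjusted p = 0.00335 and 0.00351), and *TYR1* was lower by 0.28 without CR and by a log2 difference of 0.69 with it (adjusted p = 0.0398 and 0.000274). *BAT2*, for the cytosolic branched-chain aminotransferase, was lower by 0.46 and 0.48 (adjusted p = 0.0419 and 0.0278).

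Some of the genes that set Gcn4 translation and stability were called between strains, against the same background shares. Of 11 genes of translational control, 3 were lower in *sus1*Δ cells without CR, namely *GCD7* and *GCN3*, subunits of the exchange factor eIF2B, and the kinase gene *GCN2*, by 0.56, 0.33 and 0.35 (adjusted p = 0.0031, 0.0417 and 0.0149), of which *GCN3* was lost without WT culture 3 (-0.22, adjusted p = 0.0968). With CR the same genes were lower by 0.37, 0.44 and 0.36 (adjusted p = 0.0175, 0.00853 and 0.00969), and *GCD2*, another subunit of that factor, was higher by 0.41 (adjusted p = 0.00281). The other 7 genes of the list were not called between strains without the block in either condition. *GCD2* was the gene of this list that fell with CR in WT cells, by 0.47 (adjusted p = 0.00163, where 9.01% of all genes fell). Among 4 genes of Gcn4 turnover 1 was called, *PCL5*, a cyclin that marks Gcn4 for degradation and is itself a Gcn4 target. It was higher in *sus1*Δ cells by 0.60 without and 0.38 with CR (adjusted p = 0.00809 and 0.0477). *PCL5* read 9.47, 9.39 and 9.74 in untreated WT against 10.32, 9.91 and 10.16 in untreated *sus1*Δ cells, with no overlap.

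Of 10 regulators of single pathways, *BAS1*, which works with *PHO2* on histidine and purine genes, fell with CR in WT cells by 0.46 (adjusted p = 0.0349), a call lost without WT culture 3 (-0.33, adjusted p = 0.183). With CR it was higher in *sus1*Δ than in WT cells by 0.56 (adjusted p = 0.0113). *LYS14*, the activator of the lysine genes, was lower in *sus1*Δ cells with CR by 0.39 (adjusted p = 0.0317, and 0.0562 with the culture block), and *PHO2* by 0.32 (adjusted p = 0.0447, and 0.0623 with the block and 0.061 without WT culture 3).

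Other routes of amino acid metabolism showed both directions. With CR in WT cells, *ASN1* and *SER2* fell among 18 genes of serine, threonine, proline, glutamate and asparagine synthesis, by 0.36 and 0.31 (adjusted p = 0.00794 and 0.0337). In this comparison 9.01% of all genes fell and 9.4% rose. The 17 genes of sulfur and methionine synthesis include *MET17*, which both strains lack. Of these 17 genes 3 rose, *MET14* by 0.55, *MET3* by 0.54 and *MET16* by 0.50 (adjusted p = 0.00293, 0.00194 and 0.00273), and *SAM1* fell by 0.40 (adjusted p = 0.0086, and 0.0603 without WT culture 3). Of 10 genes of amino acid breakdown, *CAR1* and *CAR2*, which degrade arginine, rose by 0.51 and 0.33 (adjusted p = 0.00245 and 0.0136). With the culture block 5 of these 10 were called higher, where 14.9% of all genes were. Without WT culture 3 the block again called 5 of them higher (15.6% of all genes). None of the 12 purine genes, which Gcn4 and Bas1 also serve, was called, with a median of -0.33. With the culture block 10 of them were called lower, where 15% of all genes were, and 8 when WT culture 3 was left out (12.1% of all genes). That culture read the lowest of the WT cultures in 11 of the 12 purine genes, untreated and with CR, and without it the strain comparison called 9 of the 12 lower in *sus1*Δ cells when untreated (10.4% of all genes) and 4 with CR (14%), where none was with all arrays. No gene of these 4 lists was called for CR in *sus1*Δ cells, and with the culture block *MET14* and *MET16* were, at 0.29 and 0.35 (adjusted p = 0.0414 and 0.0256). Between strains, 4 of the 17 sulfur genes were higher and 1 lower in untreated *sus1*Δ cells (14.3% and 7.08% of all genes). With CR, 4 were higher and 4 lower (16.8% and 10.9%). *MET13* was higher in *sus1*Δ cells by 0.96 without and 0.63 with CR (adjusted p = 0.000613 and 0.00466). *MET6* was higher with CR by 0.96 (adjusted p = 0.0409) and by 0.55 without WT culture 3 (adjusted p = 0.0223). *CYS3* was lower by 0.60 without and 0.76 with CR (adjusted p = 0.000558 and 0.000107).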

How the data were processed

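Signals of 5739 probe sets on 12 GeneChip Yeast Genome 2.0 arrays (WT and *sus1*Δ, untreated and with CR, 3 cultures each) were used as deposited. The authors made these log2 signals by RMA in the Expression Console (version not given in the sources used here), with background correction, quantile normalization, which removes any change common to all genes, and summary of probes. The platform annotation named 5498 probe sets with 1 gene, and 241 stayed unnamed. For 47 genes with several, the brightest probe set was kept (49 left out), which gave 5449 genes.

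In R 4.3.3, limma 3.58.1 fitted 1 mean per group to all 12 arrays. The groups shared 1 estimate of the spread per gene, although the spread was wider in WT than in *sus1*Δ cells. The 5 comparisons were two-sided with Benjamini-Hochberg adjustment across the 5449 genes. A gene was called, and written as risen or fallen, at an adjusted p under 0.05, and intervals are 95% intervals of the fit. The study's methods instead use a t-test with 2-fold limits. The number of arrays limits the precision. The methods state that each culture was divided in parts, so arrays of 1 strain and number were taken as 1 culture. Deviations from the group means correlated at 0.247 to 0.716 in the 6 pairs of a culture, and at -0.595 to -0.00134 in 12 other pairs of a strain. The deviations of a group sum to 0 for each gene, so the second range is not independent of the first. In the culture block, strains were compared with culture as a random effect.

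Values on every array are given for *GCN4*, the isozyme pairs and members called in a comparison, and at most 3 called genes of each other list and comparison were named, besides *SUS1* and the auxotrophic marker genes. *ARG1*, *ARG4*, *HIS1*, *HIS4*, *LEU1*, *BAT1*, *LYS9* and *LYS12* were described further, and *ARG2*, *HIS6* and *GCN2* between strains and *MET14* and *MET16* in *sus1*Δ cells named, after their values were seen. *SAM1* for CR in WT cells and *TYR1* between strains without CR were also named beyond the limit of 3. The members, lists and tests were chosen with earlier results of these data known. Some listed genes, among them those without a probe set under their name (such as *ARG5,6*, *TRP1*, *SRB10* and *ADE5,7*), are not analysed here, and sequences were not used. The steps were tested on simulated data. Alternatives changed the test, threshold, filter on dim probe sets, probe set choice, scaling, offset, arrays in the fit, block and variance model, or left out arrays.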

Additional observations from a re-analysis of the deposited data

How the results depend on the processing

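The median log2 difference over the 37 genes moved by less than the spread between replicates in every comparison and under every alternative for which it was computed, and no called difference changed sign. That spread was the SD of the array medians of the 37 genes within groups, WT culture 3 included. The median CR change was -0.06, -0.06 and -0.22 in the 3 WT cultures, so this is a wide limit. The block with all arrays, the averaging of probe sets and the fit of only the groups compared cannot move the median. They therefore do not test it. The numbers of genes called moved more, and the cause was not tested. For CR in WT cells, 3 were called. The methods' t-test after adjustment called 0, a required ratio of 2 or more called 0, and a fit of only the 2 groups compared called 0. In that last fit *LEU9*, *LYS20* and *LYS4* had an adjusted p of 0.0519, 0.0886 and 0.124. It has fewer arrays and takes the spread from 1 strain only, and which of these mattered was not tested. The culture as a replicate block called 10. Leaving out 1 array gave 2 to 5 (5 without the CR array of WT culture 2), and leaving out 1 culture under the block, an alternative added after seeing the data, gave 6 (without WT culture 3) to 12 (without WT culture 1). For CR in *sus1*Δ cells, 0 were called, against 8 with the methods' t-test before adjustment, 2 with only the groups compared, 1 with the culture block, 2 with array weights and 1 without WT culture 3. Leaving out 1 array gave 0 to 0, and leaving out 1 culture under the block gave 0 (without any *sus1*Δ culture) to 4 (without WT culture 3, which then called *LEU9*, *LYS9*, *LYS12* and *LYS20* lower, 10.8% with 3.89% of all genes).

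For untreated *sus1*Δ against WT cells, 4 were called, against 8 with the methods' t-test before and 0 after adjustment, 0 with the ratio of 2, 1 with only the groups compared and 9 without WT culture 3 (7 higher and 2 lower). Leaving out 1 array gave 1 to 5, with 2 without WT culture 1 and 1 without WT culture 2 or without any of the untreated *sus1*Δ arrays. For the strains with CR, 9 were called, against 2 with the methods' t-test after adjustment and 0 with the ratio of 2. Leaving out 1 array gave 2 to 11, with 5 without the CR array of WT culture 3 and 3, 4 and 2 without those of *sus1*Δ cultures 1, 2 and 3. For the difference between the responses, 0 were called, and under the block 0 to 1 without 1 culture (1 without WT culture 3, *LYS20*). The t-test and the fit of only the groups compared give no value for it.

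The replicate block of culture changed no other call of the 37 genes than those given with it. Leaving WT culture 3 out of the other gene lists, with and without the block, was also added after seeing the data. With 3 cultures a group, the smallest difference called among the 37 genes was -0.22. *ARG3* was close to the lowest 5% of signals, which ended at 4.53 to 4.80 on WT and 5.36 to 5.49 on *sus1*Δ arrays, so its differences are least certain.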
